A study of Mus musculus with 12 samples.

Results

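Macrophages and the other immune cells of the E12 mouse fetal gonad were picked from single-cell RNA sequencing libraries by their transcripts. A cell was kept if it had at least 1000 detected genes and at most 10% mitochondrial unique molecular identifiers (UMIs, each standing for 1 captured transcript). A kept cell was taken as an immune cell if the genes Tyrobp, Fcer1g, C1qb and Csf1r together had at least 5 UMIs, at least 2 of them were detected, and the germ cell genes Dppa5a, Pou5f1, Ddx4 and Dazl together had fewer than 10 UMIs. This rule selected 248 of 83513 kept cells (0.297%), out of 103730 barcodes. The members were therefore chosen by their levels of these 4 genes, which are given below as a description.

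The study asked what the splice forms of the Wilms' tumour factor WT1 do in sex determination. WT1 is made with or without the amino acids KTS between its last zinc fingers. The 12 libraries were XX and XY gonads of 3 genotypes with 2 replicates each, all at E12. The genotypes were wild type (WT), homozygous loss of the form without KTS (-KTS KO), and homozygous loss of the form with KTS (+KTS KO), and the mouse lines were kept on a mixed B6CBAF1/JRj background. Both are germline mutations and are not restricted to the gonad. The gonads were dissociated with trypsin and were not sorted. By the study's methods both gonads of an embryo were taken free of the mesonephros, and -KTS KO samples pooled the gonads of several embryos, although the sample details give a single embryo for an XX -KTS KO sample. Where libraries were pooled, genotype and pooling cannot be told apart. The GEO labels do not say that the replicates are separate embryos, and the p-values measure the spread between libraries.

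Fetal gonad macrophages descend from yolk sac and fetal liver progenitors, enter the gonad with its vessels, and are known for clearing dying cells and shaping the vasculature. They depend on the receptor CSF1R, whose ligands CSF1 and IL34 come from surrounding cells, and they make the complement subcomponent C1q. TYROBP and FCER1G are adaptor proteins that carry the signal of many receptors in myeloid cells, and they also occur in granulocytes, mast cells and some lymphocytes. Hence the rule takes in other immune cells as well as macrophages.

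Myeloid genes are commonly controlled by PU.1, a factor that binds purine-rich sites with the core GAGGAA. The promoters of a macrophage gene of the selection rule and of 3 genes that differed between genotypes are shown here, from 250 bases before to 50 bases after the RefSeq start, 5′ to 3′ on the gene's strand, with GAGGAA or its reverse complement TTCCTC in capitals. C1qb lies on the minus strand at chr4:136886151-136886450 of GRCm38.p6. Pf4, Mrc1 and Ccl12 lie on the plus strand at chr5:90772185-90772484, chr2:14229164-14229463 and chr11:82101595-82101894.
C1qb: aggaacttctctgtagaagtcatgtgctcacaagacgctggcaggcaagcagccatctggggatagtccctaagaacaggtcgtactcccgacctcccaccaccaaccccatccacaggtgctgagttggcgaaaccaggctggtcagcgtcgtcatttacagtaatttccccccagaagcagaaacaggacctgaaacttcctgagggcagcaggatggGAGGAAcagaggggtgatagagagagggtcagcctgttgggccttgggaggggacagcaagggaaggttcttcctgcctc
Pf4: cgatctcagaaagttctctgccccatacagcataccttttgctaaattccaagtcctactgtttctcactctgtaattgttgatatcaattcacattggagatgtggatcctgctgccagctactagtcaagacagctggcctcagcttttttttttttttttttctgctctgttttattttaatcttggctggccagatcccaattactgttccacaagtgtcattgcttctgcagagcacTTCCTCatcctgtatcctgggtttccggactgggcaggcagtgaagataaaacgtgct
Mrc1: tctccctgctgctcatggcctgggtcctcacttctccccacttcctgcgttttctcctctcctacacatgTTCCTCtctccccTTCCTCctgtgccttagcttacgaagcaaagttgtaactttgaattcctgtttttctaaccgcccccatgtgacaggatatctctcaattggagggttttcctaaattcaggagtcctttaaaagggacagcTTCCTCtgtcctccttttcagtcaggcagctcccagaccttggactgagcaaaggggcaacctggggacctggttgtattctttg
Ccl12: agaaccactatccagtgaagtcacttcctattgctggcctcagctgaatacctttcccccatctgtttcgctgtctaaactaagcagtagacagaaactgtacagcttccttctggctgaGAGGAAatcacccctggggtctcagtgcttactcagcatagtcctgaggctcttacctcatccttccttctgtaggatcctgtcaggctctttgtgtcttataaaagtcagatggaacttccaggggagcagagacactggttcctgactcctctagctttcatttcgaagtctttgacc
The Mrc1 window held 3 matches and each of the other windows held 1. On both strands together GAGGAA occurred in 9289 of 32851 RefSeq promoter windows of this length (28.3%), so a match is frequent. The longer form GAGGAAGT was in the Pf4 window and in 1052 windows (3.20%). These matches are letters in a window and no binding was measured. RefSeq promoters were found for 9 of the 15 genes looked up. Of these only that of Fcer1g, another gene of the rule, held no match, which says only that these letters are not in its window. Enrichment of matches was not tested.

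The immune cells carried the 4 genes of the rule in high amounts. Tyrobp was detected in 247 of the 248 cells, Fcer1g in 242, C1qb in 208 and Csf1r in 173, and 165 cells had all 4 genes. The median cell held 72 UMIs of these genes together and the highest held 394. In the 83265 other kept cells Tyrobp was detected in 1.47% and C1qb in 0.138%. The median immune cell had 15077.5 UMIs and 3512.5 genes, against 13829 UMIs in the other kept cells. At the threshold, 5 cells had exactly 5 UMIs of the rule genes and 3 cells with 4 UMIs were left out. A further 70 cells were left out because 1 gene alone was detected, and 7 because of germ cell transcripts.

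The libraries held 108111924 to 147968666 UMIs in all, and the immune cells of a library 113965 to 558875. The cells matched the sex of their library: Xist was seen in 113 of 126 XX immune cells and in 0 of 122 XY ones, and Y-linked genes in 83 XY and 0 XX cells. Pairs of libraries shared 0.0489% to 0.388% of their barcodes, and 0 barcodes were members in more than 1 library. The gene Wt1 cannot serve to check the genotypes, because counts from transcript 3′ ends do not separate the splice forms.

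Most of the immune cells were macrophage-like. On clustering the 248 cells, 6 of 8 clusters with 174 cells were named macrophage-like from the fixed marker list, which included C1qa, C1qb, C1qc, Csf1r, the fractalkine receptor Cx3cr1, F4/80 (Adgre1) and the mannose receptor Mrc1. As C1qb and Csf1r had also helped to select the cells, the naming and the sums of this list rest in part on the rule. Of these 174 cells, 140 had Cx3cr1 (80.5%), 113 had Adgre1 (64.9%) and 134 had Mrc1 (77.0%), against 0.0456%, 0.0240% and 0.522% of the other kept cells. Timd4, a receptor of resident macrophages for dying cells, was in 13 of the 174, and the scavenger receptor Cd163 was in 1. The proliferation gene Mki67 was in 64 (36.8%), against 30.3% of the other kept cells.

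The macrophage-like clusters differed in their leading genes, which are given as a description. One of 32 cells was led by Lyve1, Folr2, Hmox1, Pf4, Mrc1 and Ccl2, a set known from vessel-associated resident macrophages. Another of 38 cells was led by Apoc1, Isg15 and Ccl6. A cluster of 21 cells was led by Pdgfb, Abca1 and Pmepa1. It carried more summed endothelial marker UMIs than the other clusters, at 530 per 1000000 UMIs (CPM). In macrophage-like cells this list was at 568.6 CPM in XX +KTS KO replicate 2 and at most 83.8 CPM in every other library. That library held 3 of the 21 cells, so the level may rest on few cells. A cluster of 30 cells was led by genes of mitosis, with Mki67 in 26 of them, and one of 15 shallow cells by histone genes of DNA replication. The sixth, of 38 cells, had a median of 6832.5 UMIs.

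The other 2 clusters were left unnamed. In one of 27 cells a C1qb UMI was found in 0 cells, which by counting error alone allows a share of up to 11.1% of cells with a UMI, and the macrophage list summed to 70.9 CPM, while the granulocyte list (Mpo, Prtn3, S100a8 and others) reached 9443 CPM, the monocyte list 968 CPM and the mast cell list 575 CPM. Most of the granulocyte sum of this cluster came from a single cell, which held 5773 UMIs of the list. The leading genes of this cluster were Mpo and Prtn3, granule enzymes of early granulocytes, and the mast cell protease Cpa3. Among them were also the T-cell receptor constant gene Trbc2 and the lymphoid cytokine receptor Il7r. In the other, of 47 cells, the gonadal somatic list (Wt1, Gata4, Nr5a1 and others) summed to 1328 CPM beside 2043 CPM of the macrophage list. It held 8 of the 11 immune cells that were among the highest doublet scores.

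**Figure D1:**
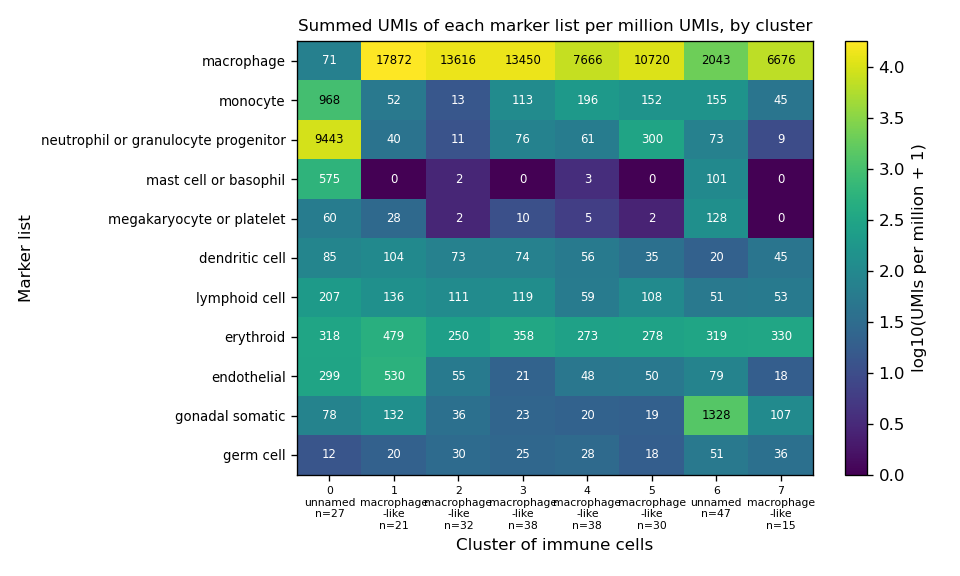
Summed UMIs of each marker list (rows) per 1000000 UMIs (CPM) in each of the 8 clusters of immune cells (columns, with their number of cells), coloured on a log10 scale. The 6 macrophage-like clusters sit between 6676 and 17872 CPM of the macrophage list, whereas one unnamed cluster holds 71 and the other 2043 beside 1328 CPM of gonadal somatic markers.

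Granulocyte, mast cell and monocyte transcripts marked a small set of the immune cells. At least 10 UMIs of the granulocyte list were found in 16 of 248 cells, of which 12 were in the unnamed cluster without C1qb. The 16 cells were 7 of 58 WT, 1 of 100 -KTS KO and 8 of 90 +KTS KO immune cells. The mast cell list reached 10 UMIs in 14 cells, namely 7 WT, 0 -KTS KO and 7 +KTS KO cells. By counting error alone, 0 of 100 cells in -KTS KO allows a share of up to 3.00% of cells at this level, and these cells came from 4 libraries. The monocyte list reached it in 31 cells, of which 13 were WT, 5 -KTS KO and 13 +KTS KO. The counts of these lists pool the cells of the 4 libraries of a genotype and were not tested between genotypes. The unnamed cluster without C1qb held 2, 7, 2 and 1 cells in the WT libraries (XX replicates 1 and 2, then XY replicates 1 and 2). In the same order it held 1, 0, 1 and 0 in -KTS KO and 6, 2, 0 and 5 in +KTS KO. The alarmins of mature neutrophils were confined to few cells here, with 2374 UMIs of S100a8 in 4 cells, 1951 of them in a single cell, and 1591 UMIs of the granule gene Camp in 2 cells. Ly6c2, a gene of classical monocytes, was detected in 1 cell. The lymphoid list reached 10 UMIs in 6 cells and the dendritic cell list in 4. At 0 in every library were 6 of the 12 mast cell genes, 7 of the 12 lymphoid genes and 3 of the 8 dendritic cell genes.

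The immune share of the kept cells was highest on average in -KTS KO gonads, but the difference from WT did not pass the test. Values are given in the order XX replicate 1, XX replicate 2, XY replicate 1 and XY replicate 2 here and below. In WT the libraries held 11, 25, 12 and 10 immune cells, or 0.155%, 0.346%, 0.133% and 0.151% of kept cells. In -KTS KO they held 22, 20, 32 and 26, or 0.435%, 0.320%, 0.522% and 0.447%. In +KTS KO they held 34, 14, 12 and 30, or 0.355%, 0.284%, 0.158% and 0.368%. The second XX WT library lay above the lowest -KTS KO library, and with counts this small the 95% Wilson interval of a library was wide, for example 0.0867% to 0.278% for the 11 cells of the first XX WT library. These intervals cover counting error only.

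The mean share was 0.431% ± 0.0835 (SD, n = 4) in -KTS KO and 0.196% ± 0.10 (SD, n = 4) in WT, a 2.20-fold difference (exact permutation test over libraries, two-sided, p = 0.0571, adjusted p = 0.171 over 4 comparisons). The smallest p that 4 libraries against 4 allow is 0.0286. The +KTS KO mean of 0.291% ± 0.0963 (SD, n = 4) was not separated from WT (exact permutation p = 0.171, adjusted p = 0.229) or from -KTS KO (exact permutation p = 0.0857, adjusted p = 0.171). The 6 XY libraries averaged 0.296% ± 0.171 (SD) and the 6 XX libraries 0.316% ± 0.0934 (SD), with p = 0.823 by the exact permutation test. Permuted within each sex, the -KTS KO and WT comparison gave an adjusted p of 0.222.

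**Figure D2:**
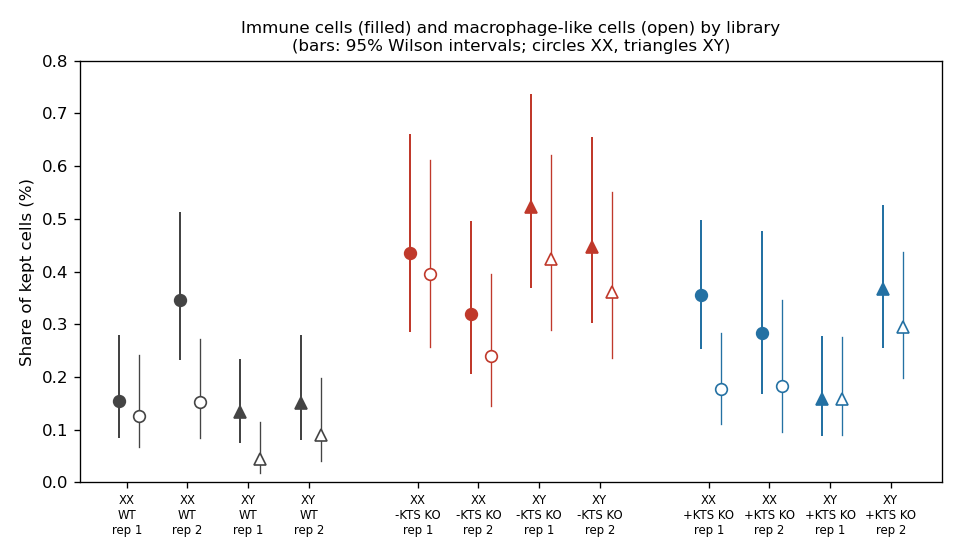
Share of kept cells (%, vertical axis) that were immune cells (filled) or macrophage-like cells (open) in each of the 12 libraries, with 95% Wilson intervals; circles are XX and triangles XY. Macrophage-like shares run from 0.0443% to 0.152% in WT, 0.240% to 0.424% in -KTS KO and 0.158% to 0.294% in +KTS KO, while the shares of all immune cells overlap between genotypes.

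Macrophage-like cells alone gave a wider gap, in a count added after the data were seen. They made up 0.355% ± 0.0811 (SD, n = 4) of kept cells in -KTS KO, 0.104% ± 0.0469 in WT and 0.203% ± 0.0618 in +KTS KO. The -KTS KO libraries did not overlap WT, with a 3.43-fold mean (exact permutation p = 0.0286, adjusted p = 0.0571), and neither did the +KTS KO libraries, with a 1.96-fold mean (exact permutation p = 0.0286, adjusted p = 0.0571). The libraries of the 2 knockouts overlapped, with a 1.75-fold mean (exact permutation p = 0.0571, adjusted p = 0.0762). The per-library counts were 9, 11, 4 and 6 in WT, 20, 15, 26 and 21 in -KTS KO, and 17, 9, 12 and 24 in +KTS KO. They leave out the unnamed cluster with gonadal RNA, by a naming rule set after the clusters were seen. In that cluster 27 of 47 cells had at least 10 UMIs of the macrophage list. It held 0, 7, 6 and 3 WT cells and 11, 3, 0 and 1 +KTS KO cells. Shares with these cells added were not computed, and over all immune cells the +KTS KO and WT libraries overlapped. A share depends on the number of other cells, so more macrophages and fewer other cells cannot be told apart. With germ cells taken out of the denominator, the share of all immune cells in -KTS KO libraries overlapped neither that in WT nor that in +KTS KO (exact permutation p = 0.0286, adjusted p = 0.0571 for each). With the highest doublet scores removed, the immune shares of -KTS KO and WT libraries did not overlap, at 0.355% or more against 0.333% or less (exact permutation p = 0.0286, adjusted p = 0.114).

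The rule genes were then compared between genotypes as values, with no test, since they chose the cells. Tyrobp was at 2355, 1172, 1204 and 1716 CPM in WT immune cells, 2238, 1817, 1801 and 1543 in -KTS KO, and 1481, 1256, 3009 and 2046 in +KTS KO. C1qb was at 3123, 1129, 951 and 2159 CPM in WT, 2918, 1882, 2398 and 1798 in -KTS KO, and 1274, 1419.9, 4323 and 2046 in +KTS KO. For both genes the ranges of the 3 genotypes overlapped. Csf1r stood at 941 CPM in the first XY +KTS KO library, and between 109.5 and 380.3 CPM in the other 11.

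In -KTS KO immune cells the chemokine genes Ccl2, Ccl7, Ccl12 and Pf4 and the genes Mrc1, Dab2, Snx2 and Wwp1 rose relative to WT, and Mpo, Prtn3 and Ramp1 fell. Over 6144 genes tested on UMIs summed by library, 11 passed at an adjusted p of 0.05 (0.179%), 8 higher and 3 lower, and for all 11 the libraries of the 2 genotypes did not overlap. Such separation was seen in 5.79% of all genes tested. The adjusted p-values in this and the following paragraphs come from edgeR (quasi-likelihood) and are adjusted by Benjamini-Hochberg across every gene in the fit, and fold changes are the mean of the XX and the XY difference.

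The neighbouring chemokine genes Ccl2, Ccl7 and Ccl12 on chromosome 11 (GRCm38 82035571 to 82103400), which attract monocytes through CCR2, all rose. Ccl2 was at 165, 29.0, 86.4 and 9.03 CPM in WT and 598, 505, 348 and 236 CPM in -KTS KO, a log2 fold change of 2.58 ± 0.48 (SE, adjusted p = 0.0480). Ccl7 had 1 UMI in all WT immune cells together and 119 in -KTS KO, a ratio of depth-scaled counts of 65.8. Its counting interval of 11.6 to 2620 pools the libraries and leaves out the spread between cells and between libraries. The libraries were at 0, 0, 5.76 and 0 CPM in WT against 85.4, 27.1, 106 and 62.3 CPM in -KTS KO (adjusted p = 0.0163). All 4 -KTS KO libraries lay above every WT library for both genes. Ccl12 went from 91.5, 107, 51.9 and 45.2 CPM to 670.1, 779.8, 119 and 179 CPM (log2 fold change 2.22 ± 0.38, adjusted p = 0.0253), with the XX libraries of -KTS KO far above its XY ones. Ccl2 was detected in 29.4% of immune cells and 0.0564% of the other kept cells.

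Pf4, a platelet-type chemokine that fetal resident macrophages also make, rose from 708, 524, 225 and 280.0 CPM in WT to 1938, 783, 2274 and 1174 CPM (log2 fold change 1.97 ± 0.31, adjusted p = 0.0163). Its lowest -KTS KO library lay just above the highest WT library. The highest, XY replicate 1, also held the megakaryocyte or platelet list at 198 CPM, against 0 to 2.52 CPM in the other -KTS KO libraries and 0 to 84.3 CPM in WT, with 0 of its 10 genes at 0 in every library, and Pf4 did not pass without that library. In the macrophage-like cells of that library the list was at 6.21 CPM and Pf4 at 2178 CPM. Of 100 -KTS KO immune cells, 1 had at least 10 UMIs of the list, and the highest of all immune cells held 100. The 198 CPM may thus rest on 1 cell. Of the chemokine list, 4 of 13 genes tested rose and 0 fell, where 0.179% of all genes passed. The median log2 fold change of the list was 1.97 beside 0.01 over all genes. In macrophage-like cells alone 0 of 13 passed, where 0 of all 3744 genes did, with a median of 1.02 beside 0.08.

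Among receptors and endocytic genes, Mrc1, the mannose receptor, went from 262, 185, 46.1 and 135 CPM to 649, 488, 362 and 527 CPM (log2 fold change 1.87 ± 0.33, adjusted p = 0.0303). Dab2, a clathrin adaptor for endocytosis, was at 219.6, 219, 74.9 and 63.2 CPM in WT and 745, 587, 462 and 789.6 CPM in -KTS KO (log2 fold change 2.38 ± 0.26, adjusted p = 0.00108). All 4 -KTS KO libraries lay above the highest WT library for both genes. Snx2, a sorting nexin of the retromer pathway, averaged 568 ± 26.0 CPM (SD, n = 4) against 194 ± 86.0 (adjusted p = 0.0163). The ubiquitin ligase Wwp1 averaged 142 ± 41.3 CPM against 44.4 ± 6.79 (adjusted p = 0.0253). In the scavenger and phagocytic receptor list 1 of 8 genes tested, Mrc1, rose (0.179% of all genes passed). The median log2 fold change of the list was 1.39 beside 0.01 over all genes. In the other kept cells 2 of 10 genes of this list rose and 2 fell, Mrc1 among those called, where 18.8% of 19035 genes passed. In macrophage-like cells alone 0 of 7 passed, where 0 of all 3744 genes did, with a median of 0.12 beside 0.08 over all genes.

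The genes that fell were Mpo, Prtn3 and Ramp1. Mpo, the myeloperoxidase of granulocyte progenitors, had 221 UMIs in WT and 1 in -KTS KO, a ratio of depth-scaled counts of 399.8 (adjusted p = 0.00501). The counting interval of this ratio, 71.0 to 15863, pools the libraries and leaves out the spread between cells and between libraries. Prtn3, proteinase 3, was at 30.5, 221, 207 and 1021 CPM in WT and 28.5, 23.7, 1.96 and 0 CPM in -KTS KO (log2 fold change -5.52 ± 0.88, adjusted p = 0.0163). The lowest WT library and the highest -KTS KO library were close for Prtn3. In the granulocyte list Mpo and Prtn3 were 2 of 7 genes tested, where 0.179% of all genes passed. The median log2 fold change of the list was -5.03, beside 0.01 over all genes. In the other kept cells 1 of 3 genes tested of this list rose and 1 fell, Prtn3 among those called, where 18.8% of 19035 genes passed. Ramp1, an accessory subunit of the receptor for the neuropeptide CGRP, went from 85.4, 127, 109.5 and 90.3 CPM to 15.5, 6.78, 37.2 and 41.6 CPM (log2 fold change -2.28 ± 0.33, adjusted p = 0.0141).

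**Figure D3:**
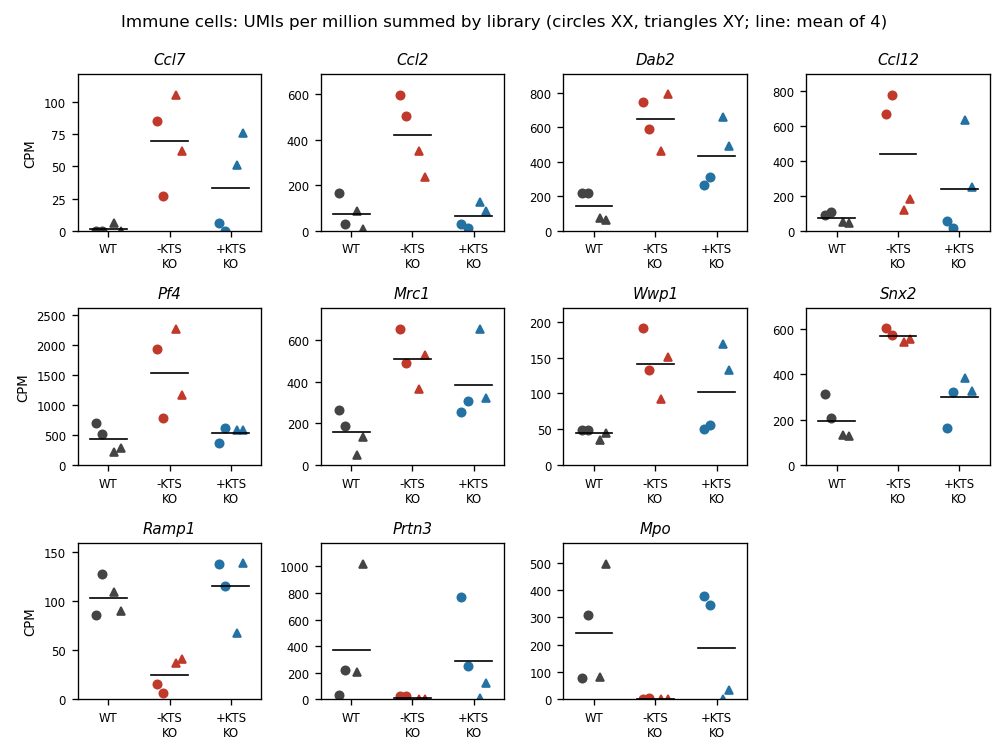
UMIs per 1000000 (CPM, scaled as for the test, vertical axes from 0) summed over the immune cells of each library. The 11 genes that differed between -KTS KO and WT are drawn. Circles are XX libraries, triangles XY libraries and lines the means of 4 libraries. For every gene drawn the -KTS KO points lie wholly above or wholly below the WT points, and this also holds against the +KTS KO points for Ccl2, Pf4, Snx2 and Ramp1.

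The make-up of the immune cells moved with this comparison, and its part in the result was not tested. The granulocyte list summed to 120 to 4896 CPM in WT libraries, 5.04 to 54.7 in -KTS KO and 54.5 to 10833 in +KTS KO. Of its 12 genes, 4 were at 0 in every library. The 10833 CPM of XX +KTS KO replicate 1 came mostly from the single cell with 5773 UMIs of the list. Macrophage-like cells were 30 of 58 immune cells in WT, 82 of 100 in -KTS KO and 62 of 90 in +KTS KO. Within macrophage-like cells alone, 0 of 3744 genes tested passed for -KTS KO against WT (0%) by edgeR, 395 had an unadjusted p under 0.05, and DESeq2 called 14. The count of 0 became 24, 17, 11 and 9 when XY +KTS KO replicate 1, XY +KTS KO replicate 2, XX +KTS KO replicate 1 or XX +KTS KO replicate 2 was left out, libraries that enter the estimate of the spread but not the difference, and 7, 2 and 1 without XY WT replicate 1, XX WT replicate 1 and XX WT replicate 2. There the log2 fold changes were 1.72 ± 0.33 for Dab2 (adjusted p = 0.0762), 4.99 ± 1.08 for Ccl7 (adjusted p = 0.0967), 1.54 ± 0.47 for Ccl2 (adjusted p = 0.268) and -2.17 ± 0.56 for Ramp1 (adjusted p = 0.167). Those of Pf4 (0.83 ± 0.26, adjusted p = 0.274), Mrc1 (0.96 ± 0.30, adjusted p = 0.274), Ccl12 (1.02 ± 0.47, adjusted p = 0.463), Snx2 (1.01 ± 0.23, adjusted p = 0.102), Wwp1 (0.89 ± 0.34, adjusted p = 0.357) and Prtn3 (-1.97 ± 1.44, adjusted p = 0.659) did not pass either, and for these 10 genes the fold change was nearer to 0 than in all immune cells. The WT macrophage-like sums were shallow, from 39580 UMIs upward. Erythroid markers summed to 381 to 1639 CPM in WT macrophage-like cells and to 137 to 230 CPM in -KTS KO, without overlap, with 2 of the 10 genes at 0, and their part was not tested either.

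The number of genes that passed depended on single libraries. It was 2 without XX WT replicate 2, 3 without XY WT replicate 1, 5 without XY WT replicate 2, 4 without XX -KTS KO replicate 1, 6 without XY -KTS KO replicate 2 and 17 without XX WT replicate 1. Dab2 and Mpo passed in all 8 of these fits, Ramp1 in 6, and Ccl7, Mrc1 and Snx2 in 4. Ccl12, Pf4, Prtn3 and Wwp1 passed in 3 and Ccl2 in 2. Without the cells of highest doublet score Ccl2 and Prtn3 did not pass, and with the replicate number as a block Mrc1 and Wwp1 did not. Without the unnamed cluster with gonadal RNA, Ccl2, Ccl12, Mrc1, Prtn3 and Wwp1 did not pass. Ccl2 was also lost with the size factors of DESeq2. In the XY libraries alone 4 genes passed (0.0651%), Dab2, Pf4, Mpo and Prtn3, and in the XX libraries alone 0 by edgeR (0%), with 345 at an unadjusted p under 0.05. Macrophage-like cells gave 0 genes in each sex alone (0%), with 259 and 279 at an unadjusted p under 0.05.

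Other groups of macrophage genes gave no call between -KTS KO and WT immune cells. Of the lysosome list 0 of 16 passed (median log2 fold change 0.16), of the iron and heme list 0 of 9 (0.52), of the lipid handling list 0 of 7 (0.58), of the antigen presentation list 0 of 5 (0.51) and of the cell cycle list 0 of 12 (0.24). These medians stand beside 0.01 over all genes. Of all genes 0.179% passed, so counts of 0 in lists this short are near that share and are not a result about these lists. In macrophage-like cells alone 0 genes of these lists passed, where 0 of all 3744 genes did. The medians there were -0.42 for lysosome, -0.07 for iron and heme, -0.00 for lipid handling, -0.19 for antigen presentation and 0.64 for cell cycle. They stand beside 0.08 over all genes, and 4 of the 5 were below 0. The counts of 0 say that no difference was detectable at this depth, not that there was none.

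For +KTS KO against WT, no gene passed in immune cells when the XX and XY differences were averaged, and 3 genes passed in the XY libraries alone. Of 6144 genes, 0 passed by edgeR (0%), 383 had an unadjusted p under 0.05 and DESeq2 called 1. Dab2 came nearest among the genes above, at 264, 311, 661 and 488 CPM in +KTS KO (log2 fold change 1.70 ± 0.26, adjusted p = 0.0587), each library above the WT ones. Mrc1 was at 252, 308, 653 and 319 CPM (log2 fold change 1.40 ± 0.33, adjusted p = 0.506). Of the lysosome list 0 of 16 genes passed, with a median log2 fold change of 0.30 beside 0.02 over all genes, and 15 of the 16 were above 0, as were 3190 of all 6144 genes. In macrophage-like cells the median of the list was 0.11 beside 0.07, with 11 of 16 above 0. In macrophage-like cells 0 of 3744 genes passed (0%), 261 had an unadjusted p under 0.05 and DESeq2 called 0.

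Split by sex, the XX libraries gave 0 genes by edgeR (0%), with 178 at an unadjusted p under 0.05, and the XY libraries 3 (0.0488%). In XY, Dab2 rose (log2 fold change 3.02 ± 0.39, adjusted p = 0.00552), while Mfge8, which encodes a bridge between dying cells and phagocytes, and Tpm1 fell. Mfge8 was at 213 and 307 CPM in XY WT and 25.4 and 12.04 CPM in XY +KTS KO (log2 fold change -4.04 ± 0.50, adjusted p = 0.00552), and at 12.2 and 26.8 CPM in XX WT. The XY WT libraries held the highest values of the 12 for it, as for Tpm1 (log2 fold change -3.29 ± 0.48, adjusted p = 0.0152). The gonadal somatic list summed to 689.9 and 483 CPM in XY WT and to 148 and 93.0 CPM in XY +KTS KO immune cells, and its part in these differences was not tested. In macrophage-like cells the XX libraries gave 1 gene (0.0267%), Lyz2, at 907 and 662 CPM in WT and 2962 and 3540.4 CPM in +KTS KO (log2 fold change 2.05 ± 0.34, adjusted p = 0.0255), and the XY libraries 0 (0%), with 285 at an unadjusted p under 0.05.

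Both knockouts were then set against each other. WT, the genotype with the fewest immune cells, does not enter this difference, but its libraries enter the estimate of the spread. In all immune cells 2 of 6144 genes passed (0.0326%). Ccl2 was higher in -KTS KO, with +KTS KO libraries at 28.0, 13.4, 127 and 84.3 CPM (log2 fold change 3.11 ± 0.47, adjusted p = 0.0316). Ramp1 was lower in -KTS KO, with +KTS KO libraries at 138, 115, 67.8 and 138 CPM (log2 fold change -2.46 ± 0.31, adjusted p = 0.00863). For both genes the -KTS KO and +KTS KO libraries did not overlap, which held for 5.31% of all genes tested. Without XY -KTS KO replicate 1 neither passed (adjusted p = 0.0811 for each), and 23 genes passed without XY +KTS KO replicate 2. The -KTS KO libraries are the same in this contrast and in that against WT.

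In macrophage-like cells the 2 knockouts differed in more genes. Ccl2, Ccl7, Mif, Ldha, Tpi1, Pgam1 and Aldoa were higher in -KTS KO, while Apoe, Apoc1, Abca1, the lysosomal genes Ctss and Lyz2, and the complement receptor gene Itgam were lower. Of 3744 genes 48 passed (1.28%), 13 higher and 35 lower in -KTS KO, and for 40 of them the libraries did not overlap, which held for 10.9% of all genes tested. The median over all genes was 0.00 on the log2 scale.

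Ccl2 was at 702, 648, 589 and 245 CPM in -KTS KO macrophage-like cells and 90.8, 14.6, 135 and 128 CPM in +KTS KO (log2 fold change 2.74 ± 0.46, adjusted p = 0.00430). WT cells held 238, 116, 382 and 0 CPM, a range that reached into both knockouts. Ccl2 was detected in 37 of 82 -KTS KO, 15 of 62 +KTS KO and 10 of 30 WT cells. Ccl7 also passed (log2 fold change 3.57 ± 0.83, adjusted p = 0.0392) although its libraries overlapped, at 99.9, 26.6, 179 and 85.4 CPM against 0, 0, 54.0 and 116 CPM. Of the chemokine list 2 of 13 genes rose and 0 fell, where 1.28% of all genes passed. The median log2 fold change of the list was 0.86 beside -0.0036 over all genes.

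Ldha, Tpi1, Pgam1 and Aldoa each encode an enzyme of glycolysis. Glycolysis was not among the lists, and these genes were grouped after their values were seen. Ldha, lactate dehydrogenase A, was at 1192, 1809.8, 1665 and 1404 CPM in -KTS KO and 419, 507, 270.0 and 569 CPM in +KTS KO (log2 fold change 1.75 ± 0.26, adjusted p = 0.00400). Tpi1, triose phosphate isomerase, averaged 794 ± 122 CPM (SD, n = 4) against 302 ± 31.5 (log2 fold change 1.38 ± 0.21, adjusted p = 0.00400). Neither gene's groups overlapped. Pgam1, phosphoglycerate mutase, averaged 906 ± 120.5 CPM against 412 ± 47.8 (log2 fold change 1.13 ± 0.20, adjusted p = 0.00715), and Aldoa, aldolase A, averaged 1487 ± 53.0 against 791 ± 75.5 (log2 fold change 0.91 ± 0.18, adjusted p = 0.0165). In WT the averages were 754 ± 323 CPM for Ldha, 442 ± 64.4 for Tpi1, 444 ± 111 for Pgam1 and 934 ± 108 for Aldoa. Against WT their adjusted p-values in -KTS KO were 0.167, 0.167, 0.0818 and 0.201.

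Mif, macrophage migration inhibitory factor, was higher too, at 1467, 1579, 1493 and 1281 CPM in -KTS KO and 579.8, 605, 459 and 803 CPM in +KTS KO (log2 fold change 1.23 ± 0.20, adjusted p = 0.00430). Eif3j1, which encodes a subunit of a translation initiation factor, averaged 114 ± 23.1 CPM against 25.2 ± 2.99 (log2 fold change 2.18 ± 0.36, adjusted p = 0.00430). Both sets of libraries were separate. The other gonadal cells of the same libraries differed in the same direction for Ldha (log2 fold change 0.68 ± 0.21, adjusted p = 0.0397), Aldoa (0.59 ± 0.19, adjusted p = 0.0401) and Eif3j1 (1.61 ± 0.25, adjusted p = 0.00112), in a comparison where 26.2% of 19035 genes passed. Tpi1 (0.39 ± 0.17, adjusted p = 0.113), Pgam1 (0.29 ± 0.15, adjusted p = 0.193) and Mif (0.52 ± 0.18, adjusted p = 0.0584) did not pass there. The part of free RNA from those cells in these values was not tested.

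Apoe, the lipid carrier apolipoprotein E, was lower in -KTS KO macrophage-like cells, at 8663, 5332, 4549 and 6546 CPM against 25632, 8198, 30945 and 19434 CPM in +KTS KO (log2 fold change -1.73 ± 0.29, adjusted p = 0.00430). One +KTS KO library lay below the highest -KTS KO library. WT cells held 16388, 13202, 11222 and 21289 CPM, all above the -KTS KO libraries, but the difference did not pass the test (log2 fold change -1.32 ± 0.29, adjusted p = 0.0883). The neighbouring genes Apoc1 and Apoc2 on chromosome 7 (GRCm38 19671579 to 19699188 with Apoe) were lower as well, with log2 fold changes of -1.95 ± 0.39 (adjusted p = 0.0169) and -3.24 ± 0.74 (adjusted p = 0.0351). Apoe also differed in the other gonadal cells, at 69.9 ± 8.62 CPM in -KTS KO and 199 ± 17.7 CPM in +KTS KO (log2 fold change -1.51 ± 0.18, adjusted p = 0.000201). Abca1, a cholesterol exporter, was lower at 127 ± 45.0 CPM against 461 ± 366 (adjusted p = 0.0196). Spp1, osteopontin, was at 15.5 ± 14.2 CPM against 115 ± 88.3 (adjusted p = 0.0221), and went the other way in the other gonadal cells (log2 fold change 3.11 ± 0.11, adjusted p = 4.5e-07). Of the lipid handling list 3 of 7 genes tested fell and 0 rose, where 1.28% of all genes passed. The median log2 fold change of the list was -0.15 beside -0.0036 over all genes.

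Of the lysosome list 3 of 16 genes fell and 0 rose, where 1.28% of all genes passed, with a median log2 fold change of -0.43 beside 0.00 over all genes. The protease gene Ctss was at 493, 621, 503 and 453 CPM in -KTS KO and 1292, 941, 1449 and 1039.8 CPM in +KTS KO (log2 fold change -1.19 ± 0.24, adjusted p = 0.0196). Its libraries were separate between the knockouts. Lyz2, lysozyme, passed with overlapping libraries, because the XX +KTS KO libraries held 2962 and 3540.4 CPM and the XY ones 837 and 708 CPM, against 364 to 857 CPM in -KTS KO (adjusted p = 0.00857). The abundant cathepsin genes Ctsb (log2 fold change 0.21 ± 0.23, adjusted p = 0.664) and Ctsd (-0.35 ± 0.35, adjusted p = 0.632) did not pass.

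The complement list and the Fc receptor and adaptor list hold genes of the selection rule, so no count over them is given. Itgam, the chain of complement receptor 3, was at 9.36, 22.2, 23.2 and 11.1 CPM in -KTS KO and 97.8, 43.9, 126 and 106 CPM in +KTS KO (log2 fold change -2.40 ± 0.41, adjusted p = 0.00509). The C1q genes themselves did not pass, with log2 fold changes of -0.72 ± 0.26 for C1qa (adjusted p = 0.170) and -0.31 ± 0.21 for C1qc (adjusted p = 0.489). Other genes that fell included P2ry12, a purine receptor best known from microglia (33.6 ± 14.8 CPM against 124 ± 62.0, adjusted p = 0.0364), the TGF-beta receptor Tgfbr1 (46.0 ± 10.2 against 157 ± 59.0, adjusted p = 0.0169) and Ramp1 (adjusted p = 0.00430). Sparc, a matrix protein gene of many stromal cells, was at 6.24, 13.3, 6.62 and 3.71 CPM against 62.9, 351, 171 and 33.4 CPM (log2 fold change -4.13 ± 0.66, adjusted p = 0.00430), and at 808 and 661 CPM on average in the other gonadal cells of -KTS KO and +KTS KO.

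**Figure D4:**
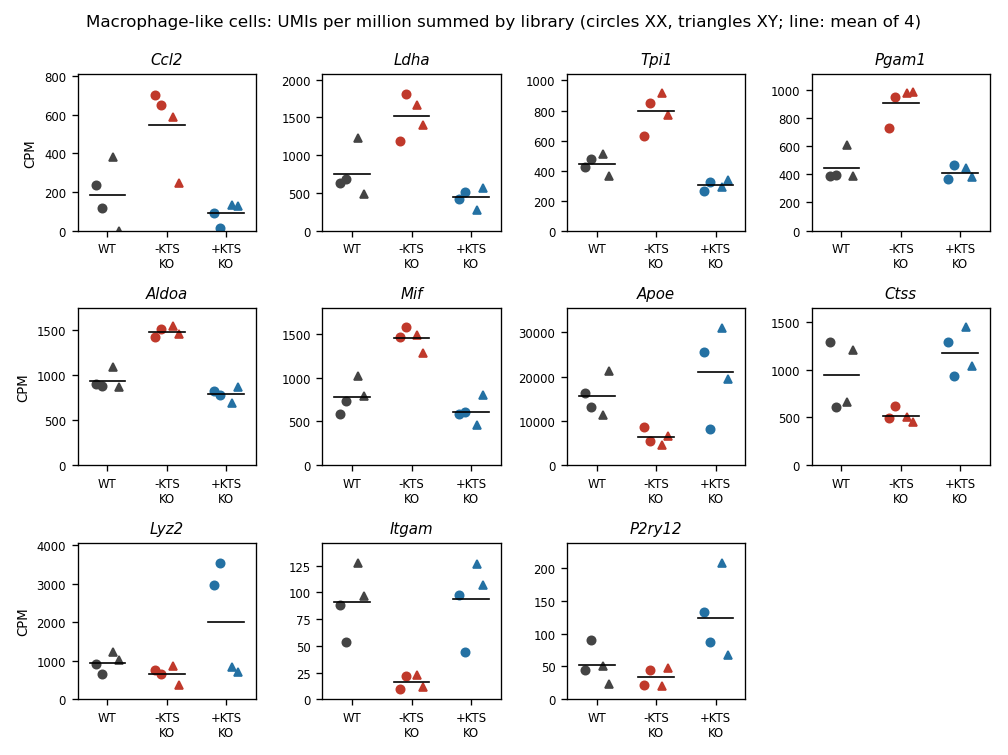
UMIs per 1000000 (CPM, scaled as for the test, vertical axes from 0) summed over the macrophage-like cells of each library. Of the 48 genes that differed between the knockouts, 11 are drawn. Circles are XX libraries, triangles XY libraries and lines the means of 4 libraries. Ccl2, Ldha, Tpi1, Pgam1, Aldoa and Mif are higher in -KTS KO than in +KTS KO and the remaining genes lower, and among the genes drawn the points of the knockouts overlap for Apoe and Lyz2.

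The macrophage-like cells of the genotypes fell into the clusters in unequal parts. Some clusters were set apart by cell cycle genes or low depth, so they need not be kinds of macrophage. Of 82 -KTS KO cells, 26 were in the cluster led by Lyve1, Pf4 and Ccl2, 19 in the shallow cluster of 38, 15 in the mitotic one, 12 in the replicating one, 10 in that led by Apoc1 and 0 in that led by Abca1 and Pmepa1. Of 62 +KTS KO cells, 4, 12, 11, 1, 22 and 12 were in the same clusters. Of 30 WT cells the counts were 2, 7, 4, 2, 6 and 9. Several of the genes above lead these clusters, which were made from the same counts. Cluster make-up and the gene differences therefore cannot be told apart, and the part of the cluster make-up was not tested. The median mitochondrial share of immune cells was 1.69% to 1.94% in -KTS KO libraries, 2.38% to 2.82% in WT and 1.85% to 3.37% in +KTS KO, and its part was not tested. The summed macrophage list lay at 9547 to 12300 CPM in -KTS KO and 9855 to 19588 CPM in +KTS KO macrophage-like cells.

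The count of 48 was 13 without XY -KTS KO replicate 1, 17 without XX -KTS KO replicate 1 and 148 without XY +KTS KO replicate 2. Apoe, Ccl2, Eif3j1, Itgam, Ldha, Lyz2, Mif, Pgam1, Ramp1, Sparc and Tpi1 were among the genes that passed in all 8 fits that left out a library. Of the other genes named, Spp1 passed in 7 of the 8, Apoc1 and Tgfbr1 in 6, Abca1, Aldoa, Ccl7 and Ctss in 5, P2ry12 in 4 and Apoc2 in 3, with adjusted p-values of up to 0.175 for P2ry12, 0.169 for Apoc2 and 0.159 for Ccl7. Ccl7 was lost with the replicate number as a block, and Ccl2 with DESeq2 (adjusted p = 0.0887).

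XX and XY immune cells differed in sex-linked genes. Of 6144 genes 3 passed (0.0488%), namely Xist, the RNA that silences an X chromosome, and the Y-linked genes Ddx3y and Eif2s3y. In macrophage-like cells 2 of 3744 passed (0.0534%), Xist and Eif2s3y. No autosomal gene passed in either. The -KTS KO effect differed between the sexes for 0 genes by edgeR (0%), with 189 at an unadjusted p under 0.05. The +KTS KO effect differed for 2 genes (0.0326%), Ptn and Tpm1.

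Ptn, the growth factor pleiotrophin, was at 0 and 2.23 CPM in XX WT and 92.2 and 81.3 CPM in XY WT, and at 24.0 and 64.3 CPM in XX +KTS KO and 0 and 2.01 CPM in XY +KTS KO (difference of log2 fold changes -9.90 ± 1.51, adjusted p = 0.0403). Tpm1, a tropomyosin, followed at 42.7 and 75.9, 444 and 497, 152 and 93.8, and 59.3 and 42.1 CPM in the same order (-4.27 ± 0.66, adjusted p = 0.0403). XY WT libraries were the high ones for both. In macrophage-like cells 0 genes passed this test and Ptn did not exceed 8.81 CPM in any library. The gonadal somatic list summed to 48.2 and 342, 689.9 and 483, 531 and 371, and 148 and 93.0 CPM over the immune cells in the same order, with 0 of its 11 genes at 0 in every library, and its part in the difference was not tested.

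The genes of ligands that act on immune cells were read in the other kept cells of each library. These sums cover all gonadal cell types at once, so fewer cells of a type and less RNA per cell cannot be told apart. Of 17 ligand genes tested, 2 rose and 3 fell in -KTS KO against WT, where 18.8% of 19035 genes passed, so the share of ligands near that background is not a result about ligands. Csf1, a ligand of CSF1R, was at 0.261, 0.615, 0.293 and 0.33 CPM in WT and 1.43, 0.70, 1.39 and 1.16 CPM in -KTS KO (log2 fold change 1.65 ± 0.36, adjusted p = 0.0104). Cxcl12, a chemokine for CXCR4-bearing cells, was at 9.49, 9.53, 23.6 and 8.99 CPM in WT and 53.0, 53.3, 81.3 and 75.9 CPM in -KTS KO (log2 fold change 2.38 ± 0.47, adjusted p = 0.00679). Both were separate between the genotypes, as were 19.6% of all genes in this comparison. The leukocyte adhesion gene Vcam1 fell (-2.35 ± 0.47, adjusted p = 0.00699), as did Tgfb1 (-0.67 ± 0.17, adjusted p = 0.0190) and Cd47, the signal that restrains engulfment (-0.68 ± 0.17, adjusted p = 0.0180).

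In +KTS KO against WT, where 10.8% of genes passed, Il7, the lymphoid growth factor, fell (-1.72 ± 0.40, adjusted p = 0.0265) and Cd200, a restraining ligand for myeloid cells, rose (0.69 ± 0.14, adjusted p = 0.0165). Il34, the other CSF1R ligand, averaged 0.793 ± 0.532 CPM in WT, 0.369 ± 0.0758 in -KTS KO and 1.33 ± 0.861 in +KTS KO, and differed between the knockouts (-1.76 ± 0.35, adjusted p = 0.00487). Of the 17 ligand genes, 2 (Cx3cl1 and Il7) were higher and 5 (Il34, Pros1, Flt3l, Cd200 and Cd47) lower in -KTS KO than in +KTS KO, where 26.2% of all genes passed. Csf1 averaged 1.17 ± 0.334 CPM in -KTS KO and 0.665 ± 0.192 in +KTS KO, which did not pass (adjusted p = 0.114). Between XY and XX, 0 of the 17 passed, where 0.473% of all genes did. Ccl2 itself was at 0 to 0.290 CPM in the other kept cells of the 12 libraries, against 9.03 to 598 CPM in immune cells.

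**Figure D5:**
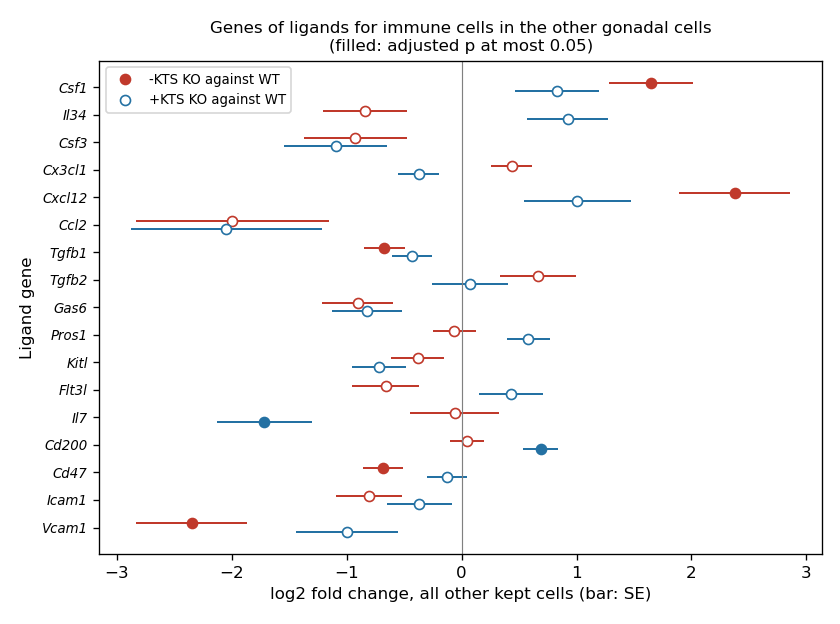
Log2 fold change (horizontal axis, bars are SE) of 17 ligand genes in all kept cells that were not immune cells, for -KTS KO against WT (red) and +KTS KO against WT (blue); filled points passed at an adjusted p of 0.05. Csf1 and Cxcl12 rise and Tgfb1, Cd47 and Vcam1 fall in -KTS KO, whereas Cd200 rises and Il7 falls in +KTS KO. Both comparisons share the WT libraries.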

How the data were processed

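The authors deposited one matrix of raw UMI counts per library (Cell Ranger 6.0, mm10, per the submitters' processing notes), with 32285 features and no cell annotation. Barcodes were kept from 1000 genes upward if mitochondrial UMIs did not exceed 10%, the study's stated thresholds. The study removed doublets with DoubletFinder. Here they were scored with Scrublet and removed only in an alternative. Immune cells were clustered with scanpy 1.11.5 (1500 variable genes, 15 components, resolution 0.8). The thresholds for naming clusters (at least 3 markers, each in at least 20% of cells) were set after the clusters were seen. The name also required that no other list had more markers raised over the other immune cells, and a minimum median depth relative to the library. The cluster with gonadal RNA had 13 macrophage markers above the other kept cells, but 11 gonadal and 0 macrophage markers raised over the other immune cells. The replicating cluster of 15 cells had a relative depth of 0.369. Library is the replicate. Shares were compared by exact permutation, with Benjamini-Hochberg adjustment over 4 comparisons. Counts summed by library were tested with edgeR 4.0.16 (quasi-likelihood, TMM, filterByExpr, 6 group means, FDR 0.05) over all 12 libraries, after tests on simulated data. CPM values of marker lists, clusters and genes not tested are plain UMIs per 1000000. Those of tested genes use the TMM-scaled library sizes of the fit, so these kinds are not on the same scale. DESeq2 1.42.0, no low-count filter, a replicate block, other cell thresholds and leaving out each library were alternatives. Named genes were the 5 largest rises and falls with separate libraries and at least 20 CPM, plus list members that were called or abundant; Snx2, Wwp1, Pgam1, Aldoa, P2ry12, Tgfbr1, Apoc1, Ptn and Tpm1 were named after their values were seen. The members and lists were chosen with earlier results of these data known. Positions are from the GRCm38 annotation. Some genes that the lists hold are not reported here by name.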

Additional observations from a re-analysis of the deposited data

Results flagged for a closer look

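In immune and macrophage-like cells, 68 sets of 4 or 6 libraries, over the immune share and the genes called, were screened for a library far from the others, of which chance flags about 1 in 20. The immune share of the second XX WT library was 0.346% of kept cells, with the next WT library at 0.155%. In the first XY +KTS KO library, which held 12 immune cells, Mrc1 was at 653 CPM, with the next +KTS KO library at 319 CPM. Ccl7 was at 5.76 CPM in the first XY WT library and at 0 in the other 3, and Mpo was at 3.39 CPM in the second XX -KTS KO library and at 0 in the other 3. Both of the latter rest on 1 UMI.

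The effect of +KTS KO differed between the sexes for Ptn, with a difference of log2 fold changes of -9.90, and for Tpm1, with -4.27 (edgeR quasi-likelihood test of the interaction, adjusted p = 0.0403 for both). Both genes were high in the XY WT libraries and low in the XY +KTS KO libraries.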

How the results depend on the processing

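For the immune share, -KTS KO against WT, the difference in percentage points was 0.204 to 0.285 when each library was left out; for the immune share, +KTS KO against WT, it was 0.0693 to 0.145, and for the immune share, -KTS KO against +KTS KO, 0.0955 to 0.177. With a smallest p of 0.0286, adjusted over 4 comparisons, these tests could hardly make a call, so the absence of calls says nothing about stability. The ratio of -KTS KO to WT was 2.04 to 3.43 over the other definitions of the cells, and the libraries did not overlap in 3 of them. For the immune share, XY against XX, the difference changed sign with macrophage-like clusters only (0.0161) and ran from -0.0646 to 0.0132 over the left-out libraries, with 0.00954, 0.00439 and 0.00819 among them. In the immune-cell sums same-numbered libraries showed no clear pairing (correlation of 15 same-numbered pairs -0.167 to 0.204). These sums hold few cells, so this check cannot decide whether replicate numbers pair the libraries. The sign-flip test by replicate block (adjusted p = 0.500 for the 3 genotype comparisons and 0.719 for XY against XX) is given for completeness.

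The number of genes called in genes in immune cells, -KTS KO against WT, was 11, and 20 with DESeq2, 116 without the low-count filter, 7 without the cluster with gonadal RNA, 0 in macrophage-like clusters and 2 to 17 over left-out libraries. For genes in immune cells, +KTS KO against WT, it was 0, and 1 with DESeq2, 46 without the filter, 1 with at least 10 marker UMIs, 1 without the highest doublet scores and 0 to 2 over left-out libraries. For genes in immune cells, -KTS KO against +KTS KO, it was 2, and 29, 150, 8 with the replicate block, 48 in macrophage-like clusters, 7 without the gonadal cluster and 0 to 23. For genes in immune cells, XY against XX, it was 3, 21 without the filter and 1 to 3. For genes in immune cells, difference between sexes of the +KTS KO effect, it was 2, and 0 in macrophage-like clusters.

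For genes in macrophage-like cells, -KTS KO against WT, 0 became 14 with DESeq2, 0 to 7 over left-out libraries of the groups compared and 9 to 24 over left-out +KTS KO libraries; +KTS KO against WT gave 0 to 2, -KTS KO against +KTS KO 13 to 148 and XY against XX 1 to 4. For genes in all other kept cells, -KTS KO against WT gave 3578, 2241 to 3205 over left-out libraries of the groups compared, and 4156 and 4173 without XY +KTS KO replicate 1 and 2, +KTS KO against WT 3385 with DESeq2 and 675 to 3012, and XY against XX 464 with DESeq2, 147 without the filter and 32 to 222. The causes were not tested, except that leaving out a library or a cluster removes samples or cells. Of 48 genes called between the knockouts in macrophage-like cells, 0 of 476 values reversed and 162 lost the call. Few cells per library limit the gene tests in immune cells (10 to 34) and in macrophage-like cells (4 to 26).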
